A study of Mus musculus with 6 samples.

Results

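Chaperonins are barrel-shaped protein-folding machines, and mammals have a cytosolic and a mitochondrial kind. The cytosolic one, CCT (also called TRiC), is built from 8 different subunits, each encoded by its own gene, and the 8 genes described here are *Tcp1*, *Cct2*, *Cct3*, *Cct4*, *Cct5*, *Cct6a*, *Cct7* and *Cct8*. The mitochondrial one is made of HSP60 (*Hspd1*), which forms the folding chamber, and its lid HSP10 (*Hspe1*). The members are thus 10 genes, found in the count table by their Ensembl identifiers, out of 20409 listed features. All 10 were among the 13346 features that passed the filter on low counts and were tested.

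CCT folds actin and tubulin, which hardly fold without it, and also WD-repeat proteins such as cell cycle activators and G protein beta subunits. Prefoldin hands it unfolded actin and tubulin. HSP60 and HSP10 fold proteins that have been imported into the mitochondrial matrix, after the matrix HSP70 has pulled them in. In the intestine, the villus holds non-dividing cells and the crypt the dividing stem and progenitor cells.

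Bulk RNA-seq was done on the villus epithelium of the duodenum, 1 library per mouse, from 3 double mutant and 3 wild-type mice. Each group had 1 male, its mouse 1, and 2 females. A fit without mouse 1 of a group therefore left only females in that group. Double mutant mice carried *Smad4* fl/fl, *Ctnnb* exon3 fl/wt and Villin-CreERT2, so that tamoxifen deletes *Smad4* and stabilises β-catenin (Smad4 LOF, β-catenin GOF) in cells of the intestinal epithelium, where the Villin promoter is active. They received tamoxifen at 0.05 g/kg on 4 consecutive days, and the villi were taken 7 days after the first dose. Wild-type mice were age-matched littermates without tamoxifen, so the effects of the drug and of the mutations cannot be told apart. The age is not given in the sources used here. The line is enriched for the C57BL6 background.

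Each library held between 19678507 and 26337318 counted reads. A floor of 3 reads, chosen here, corresponds to 0.114 to 0.152 CPM (counts relative to the library total, counting error only). *Smad4* itself fell by 2.22 on the log2 scale (standard error 0.187, edgeR adjusted p = 0.000145). The epithelial label was checked with 9 enterocyte and epithelial markers, which summed to between 38480 and 43836 CPM in wild-type and between 22973 and 24004 CPM in double mutant villi. Against this, 7 markers of stroma and vessels summed to 0.292 to 1.03 CPM in wild-type and 1.04 to 4.55 CPM in double mutant villi, which did not overlap. Wild-type mouse 1 stood apart, with 125 CPM for 7 goblet cell markers against 11601 and 11026 CPM in the other wild-type mice and 4659 to 5057 CPM in the double mutants. It was also lowest for 5 crypt stem cell markers, at 27.6 CPM against 99.3 and 105 CPM in the other wild-type mice. In such bulk samples, fewer cells of a type and less RNA per cell cannot be told apart.

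Sequence near the start sites of the chaperonin genes is given first, because the mitochondrial pair shares a promoter. *Hspd1* (ENSMUSG00000025980, chr1:55134679-55145087 of mm9, minus strand) and *Hspe1* (ENSMUSG00000073676, chr1:55144976-55148151, plus strand) lie head to head, and their annotated starts overlap by 111 bases. Promoter windows from RefSeq (GRCm38.p6), each with 250 bases before and 50 after a start, were at hand for 9 of the 10 genes in 12 windows, with no window for *Cct4*. They were searched on both strands for the heat shock element GAANNTTC, the E-box CACGTG and the CCAAT box. The stretch below carries the heat shock element that the window of *Hspe1* and 1 of the *Hspd1* windows, that of the inner start 215 bases from the *Hspe1* start, have in common. The capitals mark overlapping matches to a longer form, the same element with 1 more repeat unit at the same spacing, which was searched for after the shorter match had been seen and which contains it.
Hspe1 and Hspd1, chr1:55088053-55088082 of GRCm38.p6 (chr1:55144897-55144926 of mm9), plus strand: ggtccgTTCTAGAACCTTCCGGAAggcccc
The longer form was present in 0.603% of all 32851 windows and the shorter form in 7.86%. The printed stretch begins 95 bases before the RefSeq start of *Hspe1*, and in the mm9 annotation it also lies in the first exon, untranslated, of an *Hspd1* transcript that starts further out.

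Among the CCT genes, only *Cct2* had the short heat shock element, in 1 of its windows, and none of the 7 CCT genes with a window had the longer form. The CCAAT box was found in 4 of the CCT genes (*Tcp1*, *Cct3*, *Cct6a*, *Cct7*) and in the outer *Hspd1* window, beside 37.4% of all windows. The E-box, which 7.15% of all windows hold, was found once, in the outer *Hspd1* window. The stretches are shown for the CCT genes that rose most (*Cct3*) and least (*Cct6a*), for *Cct7*, which has 3 CCAAT boxes, and for *Cct2*, all on the strand of the gene in GRCm38.p6. Capitals mark the CCAAT box in either orientation, or the heat shock element in *Cct2*.
Cct3, chr3:88297053-88297114, plus strand: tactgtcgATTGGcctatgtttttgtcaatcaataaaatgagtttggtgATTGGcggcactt
Cct6a, chr5:129787289-129787339, plus strand: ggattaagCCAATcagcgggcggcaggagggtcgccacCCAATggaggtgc
Cct7, chr6:85451310-85451422, plus strand: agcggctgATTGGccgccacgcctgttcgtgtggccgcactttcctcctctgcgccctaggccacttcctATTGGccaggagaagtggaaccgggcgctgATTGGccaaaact
Cct2, chr10:117063398-117063429, minus strand: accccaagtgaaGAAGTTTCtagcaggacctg
*Cct3* and *Cct6a* held 2 CCAAT boxes each, and a link between such boxes and the size of a change was not tested. A match is a string of letters and not a measured binding site.

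All 10 chaperonin genes rose in double mutant villi, and in each of them every double mutant mouse was above every wild-type mouse. Over all genes tested, 19.7% rose and 17% fell, 36.8% in all. In 28.1% of all genes every double mutant mouse was above every wild-type mouse, and in 24.2% below. Values are normalized counts in CPM, scaled by edgeR's TMM factors, and adjusted p-values are from edgeR's quasi-likelihood test with Benjamini-Hochberg adjustment over all genes. The median log2 fold change was 0.72 for the 8 CCT genes and 0.74 for all 10, beside 0.02 for all genes tested. Without wild-type mouse 1, which stood apart in goblet cell markers, 9 of the 10 passed, all but *Cct6a* (log2 fold change 0.35, edgeR adjusted p = 0.0646). Markers of proliferation moved with this rise. The 8 markers summed to 66.9 to 94.0 CPM in wild-type and to 194 to 238 CPM in double mutant villi, and their part in the rise of the chaperonin genes was not tested. Of the 8 markers 7 rose, 5 without wild-type mouse 2 or double mutant mouse 1 and 4 without double mutant mouse 2. Crypt stem cell markers moved the same way, with 27.6 to 105 CPM in wild-type and 135 to 188 CPM in double mutant villi, and their part was not tested either. Of these 5 markers, *Lgr5* (log2 fold change 2.19, edgeR adjusted p = 0.0139) and *Smoc2* (1.33, edgeR adjusted p = 0.0245) rose, with 1 of 5 past the threshold without double mutant mouse 2 and 0 without double mutant mouse 1. Enterocyte markers moved the other way, with sums that did not overlap and 5 of 9 lower (median log2 fold change -0.55), among them *Lct*, lactase (-2.04, edgeR adjusted p = 0.000704), and *Sis*, sucrase-isomaltase (-1.48, edgeR adjusted p = 0.0016). Immune markers summed to 691 to 2781 CPM in wild-type and 1101 to 3134 CPM in double mutant villi, which overlapped. Most of each sum was *Cd74*, at 625, 2032 and 2671 CPM in wild-type mice 1, 2 and 3. In the double mutants *Cd74* was at 1051, 2654 and 3048 CPM (0.34, edgeR adjusted p = 0.717), so the sums mostly follow 1 gene. Of 6 tested, 2 were lower, *Ptprc* (-1.29, edgeR adjusted p = 0.00545) and *Cd8a* (-0.92, edgeR adjusted p = 0.0191). The number of lower immune markers was 4 without wild-type mouse 1, 3 without double mutant mouse 3 and 1 without each of the other mice in turn, and *Cd8a* was lost in those 4 fits. Of 7 goblet cell markers, 1 rose (*Clca1*) and 0 fell with all mice, while 1 rose and 4 fell without wild-type mouse 1. The part of these markers in the rise was not tested.

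**Figure D1:**
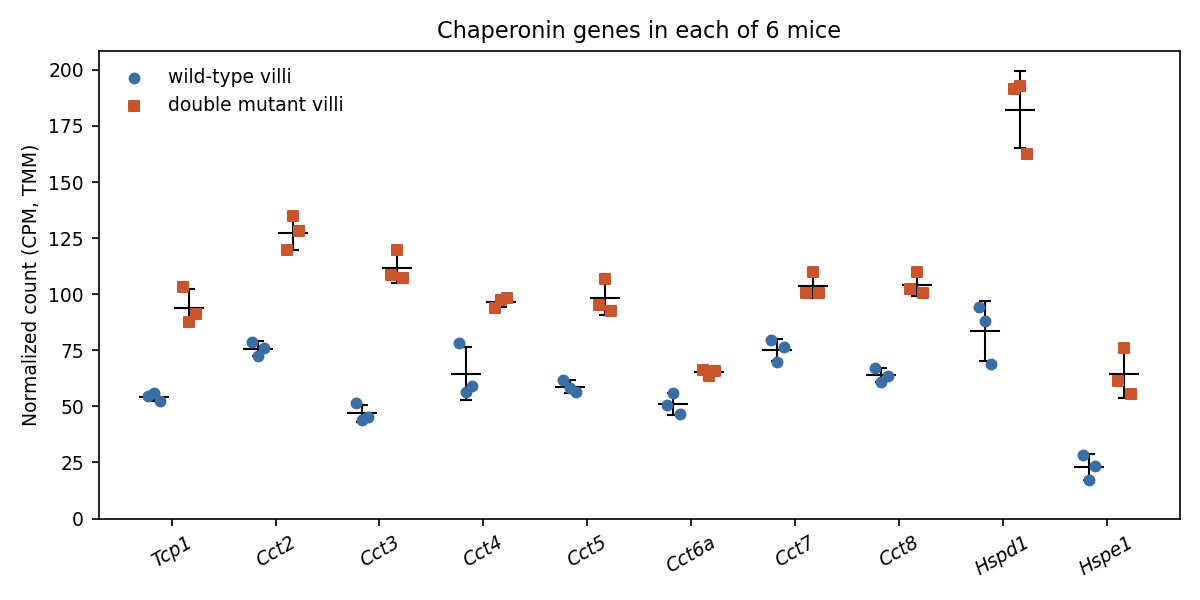
Normalized counts (CPM, y axis) of the 10 chaperonin genes in 3 wild-type (circles) and 3 double mutant mice (squares), with the mean and SD of each group as bars. In every gene the double mutant mice lie above the wild-type mice, with the widest gap in *Hspd1*, from 68.7–94.2 to 162–193 CPM, and the narrowest in *Cct6a*, from 46.6–56.1 to 63.6–66.4 CPM.

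The mitochondrial pair showed the largest and the third largest rise of the 10. *Hspe1* was at 28.4, 17.2 and 23.3 CPM in wild-type mice 1, 2 and 3 and at 61.4, 76.2 and 55.7 CPM in double mutant mice 1, 2 and 3. Even the lowest double mutant mouse was 1.96 times as high as the highest wild-type mouse. The means were 23.0 ± 5.59 CPM (SD, n = 3) and 64.4 ± 10.6 CPM (SD, n = 3), a log2 fold change of 1.49 (standard error 0.199, edgeR adjusted p = 0.000967). *Hspd1* was at 94.2, 88.0 and 68.7 CPM in wild-type mice 1, 2 and 3 and at 192, 193 and 162 CPM in the double mutants. Wild-type mouse 3 and double mutant mouse 3 were the lowest of their groups. Its log2 fold change was 1.12 (standard error 0.144, edgeR adjusted p = 0.000757).

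Because the strand setting and the handling of reads with several matches are not given in the sources used here, reads could be split between these genes and their copies. Copies elsewhere in the mm9 genome that covered at least 50% of the transcript numbered 1 for *Hspd1* and 11 for *Hspe1*, of which 1 each had at least 95% identity. The *Hspd1* copy, *Gm12141* on chromosome 11 (chr11:41312178-41314411 of mm9), matched at 99.0% identity and is counted as a gene of its own. It had 36, 29 and 86 counts in wild-type mice 1, 2 and 3 and 286, 145 and 178 counts in the double mutants, together 4.50% of the *Hspd1* counts. With these counts added to *Hspd1*, the ratio of means went from 2.18 to 2.23. The 3 counted copies of *Hspe1* held 26 counts in all and left its ratio at 2.81 against 2.80. The copy of *Hspe1* at 99.1% identity is not among these 3. It lies inside another gene, *Commd10*, and has no feature of its own, so reads lost to it were not covered. The overlapping starts of *Hspd1* and *Hspe1* are a further place where reads without strand could be assigned to either gene.

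The ratio between the partners overlapped between the groups. *Hspd1* had 3.32, 5.10 and 2.96 times the counts of *Hspe1* in wild-type mice 1, 2 and 3, and 3.12, 2.53 and 2.92 times in the double mutants. Wild-type mouse 2 was the highest, and an exact two-sided permutation test gave p = 0.2. Together the pair rose from 107 ± 15.3 CPM (SD, n = 3) to 247 ± 25.9 CPM (SD, n = 3), 2.31 times.

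*Cct3*, which encodes the gamma subunit, rose most among the CCT genes. It was at 51.4, 44.0 and 45.2 CPM in wild-type mice 1, 2 and 3 and at 109, 119.8 and 107 CPM in the double mutants, so that the lowest double mutant mouse had 2.08 times the highest wild-type value. The means were 46.8 ± 3.97 CPM (SD, n = 3) and 112 ± 6.93 CPM (SD, n = 3), a log2 fold change of 1.25 (standard error 0.113, edgeR adjusted p = 0.00019). Of all genes tested, 90.2% had a lower log2 fold change. *Cct3* (ENSMUSG00000001416) lies at chr3:88101038-88125689 of mm9 on the plus strand. It has 2 copies elsewhere in the genome, with 92.5% and 91.0% identity over most of the transcript, and neither copy is a feature of the table. Of the other CCT genes, *Tcp1* and *Cct4* have 1 such copy each and *Cct7* has 2, each under 95% identity, and none was found for *Cct2*, *Cct5*, *Cct6a* and *Cct8*.

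4 subunits rose by nearly equal amounts, between 0.71 and 0.79 on the log2 scale. *Tcp1*, the alpha subunit and the first to be described, was at 54.6, 56.1 and 52.4 CPM in wild-type mice 1, 2 and 3 and at 103, 87.4 and 91.1 CPM in the double mutants (log2 fold change 0.79, standard error 0.110, edgeR adjusted p = 0.00108). *Cct2*, the beta subunit, was at 78.7, 72.4 and 76.1 CPM and at 119.6, 135 and 128 CPM (0.75, standard error 0.103, edgeR adjusted p = 0.00102). *Cct5*, the epsilon subunit, was at 61.9, 58.1 and 56.5 CPM and at 95.2, 107 and 92.6 CPM (0.74, standard error 0.108, edgeR adjusted p = 0.00136). In these 3 genes the SD within a group was 3.44% to 8.89% of the mean. *Cct8*, the theta subunit, was at 67.1, 60.9 and 63.5 CPM in wild-type mice and at 102, 109.7 and 100.5 CPM in the double mutants (0.71, standard error 0.102, edgeR adjusted p = 0.0013).

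The other 3 subunits rose less. *Cct4*, the delta subunit, was at 78.3, 56.3 and 59.1 CPM in wild-type mice 1, 2 and 3 and at 94.0, 97.4 and 98.3 CPM in the double mutants. Wild-type mouse 1 was well above the other wild-type mice, while the double mutants lay within 4.32 CPM of each other. The log2 fold change was 0.58 (standard error 0.140, edgeR adjusted p = 0.0126), and it was 0.74 without wild-type mouse 1. *Cct4* no longer passed without wild-type mouse 2 (edgeR adjusted p = 0.0503) or wild-type mouse 3 (edgeR adjusted p = 0.053).

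*Cct7*, the eta subunit, was at 79.4, 69.8 and 76.4 CPM in wild-type mice 1, 2 and 3 and at 101, 110.1 and 100.4 CPM in the double mutants. Its log2 fold change was 0.46 (standard error 0.106, edgeR adjusted p = 0.00992), and it passed whichever mouse was left out. *Cct6a*, the zeta subunit, had the smallest change, from 50.7, 56.1 and 46.6 CPM to 66.4, 63.6 and 66.0 CPM. The lowest double mutant mouse was only 1.13 times the highest wild-type mouse. Its log2 fold change was 0.35 (standard error 0.111, edgeR adjusted p = 0.0359). The direction held in every fit, but *Cct6a* passed in only 1 of 6 fits that left out a mouse, the one without wild-type mouse 2 (edgeR adjusted p = 0.0391). In the other 5, the adjusted p lay between 0.0638 and 0.134, and with DESeq2, the tool of the study, it was 0.0621.

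**Figure D2:**
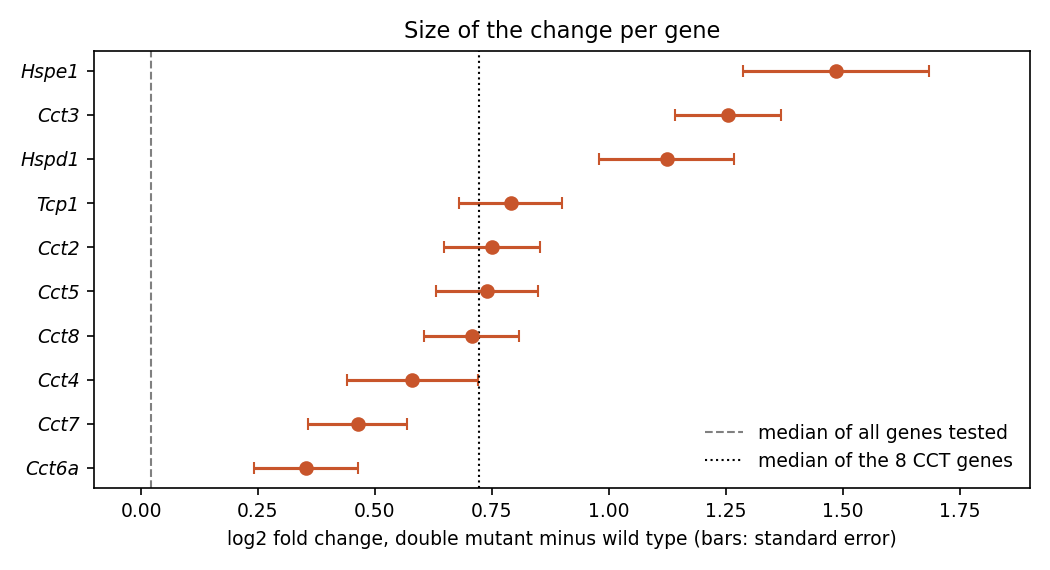
Log2 fold change (x axis, double mutant minus wild type) of each chaperonin gene with its standard error, ordered by size. *Hspe1* (1.49), *Cct3* (1.25) and *Hspd1* (1.12) lie right of the other genes, *Cct6a* (0.35) is nearest to the median of all genes (0.02, dashed), and the dotted line marks the CCT median (0.72).

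At a stricter threshold that also asks for a log2 fold change of at least 1, *Hspe1*, *Cct3* and *Hspd1* passed, 3 of 10, beside 10.9% of all genes. *Hspd1* missed that threshold without wild-type mouse 3, with a log2 fold change of 0.996. At a log2 fold change of at least 2, the threshold used in the study, no chaperonin gene passed, beside 3.04% of all genes. With the library size alone as scaling, the median of all genes moved from 0.02 to 0.22, and 3732 genes were higher and 1425 lower (72.4% of the calls higher), against 2632 and 2273 with TMM (53.7%). All 10 genes still rose, and relative to that median their log2 fold changes ran from 0.33 (*Cct6a*) to 1.47 (*Hspe1*), against 0.33 to 1.46 with TMM.

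The summed CCT level rose from 491 ± 27.3 CPM (SD, n = 3) to 801 ± 24.6 CPM (SD, n = 3), 1.63 times. The mitochondrial pair was set against the cytosolic set in the same libraries. Within a mouse, where the library's scaling cancels, the geometric mean of *Hspd1* and *Hspe1* was 0.806, 0.666 and 0.685 times that of the CCT genes in wild-type mice 1, 2 and 3 and 1.11, 1.19 and 0.985 times in the double mutants. The groups did not overlap. The ratio was 1.53 times as high in double mutants, and an exact two-sided permutation test gave p = 0.1, the smallest it can give with 3 mice against 3.

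The log2 fold changes of the CCT subunits ran from 0.35 (*Cct6a*) to 1.25 (*Cct3*). The complex holds equal copies of its subunits, so their messages were compared per length, as CPM per kilobase of merged exons. In wild-type villi the order was *Cct2* (38.6 ± 1.62, SD, n = 3), *Cct6a* (32.0 ± 2.99), *Cct7* (30.7 ± 2.00), *Cct8* (26.7 ± 1.31), *Cct5* (20.9 ± 1.00), *Cct4* (15.4 ± 2.84), *Tcp1* (10.8 ± 0.372) and *Cct3* (9.99 ± 0.846). *Cct6a* and *Cct7* overlapped over mice, as did *Tcp1* and *Cct3*, and the other neighbours in that order did not. In double mutant villi, *Cct2* was again highest at 65.0 ± 3.85 CPM per kilobase (SD, n = 3). *Cct8* (43.6 ± 2.04), *Cct7* (42.3 ± 2.25) and *Cct6a* (40.9 ± 0.954) followed. *Cct7* overlapped with both of the others over mice, while *Cct8* and *Cct6a* did not overlap. *Cct5* (35.0 ± 2.70) came next, then *Cct3* (23.8 ± 1.48) and *Cct4* (23.0 ± 0.542), which overlapped, and *Tcp1* (18.7 ± 1.66) was lowest.

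The mitochondrial genes moved up the same scale. *Hspd1* went from 31.7 ± 5.02 to 69.0 ± 6.49 CPM per kilobase (SD, n = 3 each) and overlapped with *Cct2* in the double mutants. *Hspe1* went from 15.6 ± 3.79 to 43.7 ± 7.18 CPM per kilobase (SD, n = 3 each). Merged exons are long for genes with retained introns in the annotation, such as *Tcp1* (5030 bases) and *Cct3* (4689 bases), which lowers their levels per length. The ratio of the highest to the lowest CCT gene in wild-type villi was 3.87 with merged exons and 1.74 with the coding transcript, a length chosen after the data were seen, so the order of these levels rests on the choice of transcript. Per kilobase of the coding transcript, *Cct3* was at 23.7 and then 56.6 CPM, seventh and then second of the 8, and per kilobase of the longest transcript it was last and then seventh. *Hspe1* was at 29.7 and then 83.2 CPM per kilobase of its coding transcript (774 bases), the highest mean of the 10 genes in double mutant villi, with mice overlapping those of *Hspd1*.

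As a share of the summed CCT level per length, *Cct3* went from 5.62%, 5.19% and 5.36% in wild-type mice 1, 2 and 3 to 8.09%, 8.42% and 7.96% in the double mutants. The gain was 2.76 percentage points with merged exons, 3.23 with the longest transcript and 4.73 with the coding transcript, with no overlap between the groups in each. *Cct6a* went down in share, from 16.3%, 19.4% and 16.2% to 14.5%, 13.1% and 14.4%, and *Cct7* from 16.6%, 15.8% and 17.3% to 14.3%, 14.8% and 14.3%. Neither pair of groups overlapped with any of the 3 lengths. The shares of *Tcp1*, *Cct2*, *Cct4* and *Cct8* overlapped between the groups, and *Cct5*, 0.642 points higher with merged exons, overlapped with the other lengths.

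Ratios of counts within a mouse need no length or scaling. *Cct3* had 1.01, 0.783 and 0.970 times the counts of *Cct6a* in wild-type mice 1, 2 and 3 and 1.64, 1.88 and 1.62 times in the double mutants. Against *Cct4*, the ratios were 0.656, 0.781 and 0.764 in wild-type mice and 1.16, 1.23 and 1.09 in the double mutants. Both pairs of genes were chosen after their values were seen, so these ratios are a description.

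**Figure D3:**
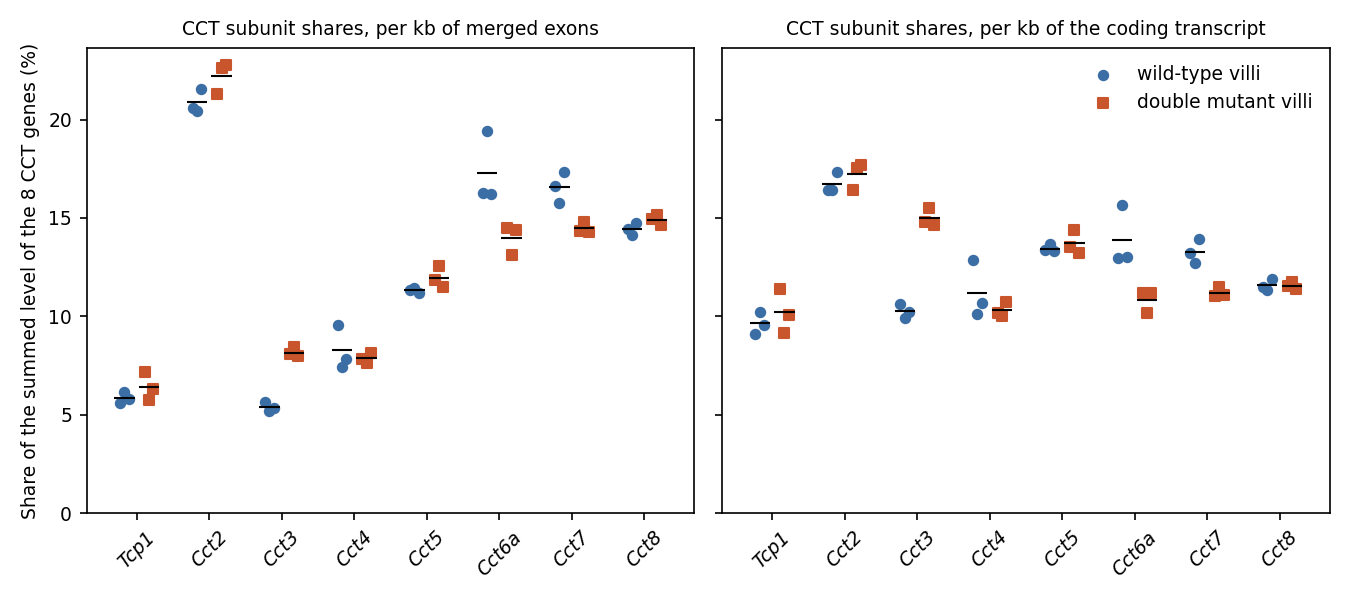
Share (%) of each subunit in the summed per-length level of the 8 CCT genes in wild-type (circles) and double mutant (squares) mice, with group means as lines, per kilobase of merged exons (left) and of the coding transcript (right). *Cct3* is higher and *Cct6a* and *Cct7* are lower in double mutants in both panels, while the height of *Cct3*, *Tcp1* and *Cct4* depends on the length used.

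A gene that starts within 1000 bases on the opposite strand was annotated for 7 of the 10 members, with *Hspd1* and *Hspe1* counted as each other's neighbour, beside 14.1% of 15843 protein-coding genes. Outside the mitochondrial pair, 4 such neighbours were tested, 1 of them rose, and no difference between a neighbour and its chaperonin gene was tested. *Fam173b* starts 5 bases from *Cct5* and was at 5.21, 5.06 and 4.40 CPM in wild-type mice 1, 2 and 3 and at 7.98, 8.44 and 7.50 CPM in the double mutants (log2 fold change 0.70, standard error 0.184, edgeR adjusted p = 0.0175). That call was lost without wild-type mouse 3 (edgeR adjusted p = 0.0619) or double mutant mouse 2 (edgeR adjusted p = 0.0664). *Psph*, a serine synthesis enzyme 186 bases from *Cct6a*, had a log2 fold change of 0.26 (edgeR adjusted p = 0.352), *Mrpl18*, a mitochondrial ribosomal protein 644 bases from *Tcp1* with an overlapping start, 0.23 (edgeR adjusted p = 0.278), and *1700040I03Rik* next to *Cct7* 0.52 (edgeR adjusted p = 0.221). Without wild-type mouse 1, *1700040I03Rik* did pass (0.85, edgeR adjusted p = 0.0359), and *Mrpl18* was at 0.38. Over the other fits that left out a mouse, *1700040I03Rik* went down to 0.30 (without wild-type mouse 2), *Mrpl18* to 0.12 (without double mutant mouse 2) and 0.13 (without wild-type mouse 2), and *Psph* to 0.15 (without double mutant mouse 2). *1700021C14Rik* next to *Cct3* had too few counts to be tested.

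Genes that work with the chaperonins were taken in lists, chosen with earlier results of these data known, so their counts are a description. Of 108 tested genes in the 11 lists, 36 rose (33.3%) and 7 fell (6.48%), beside 19.7% and 17% of all genes. These numbers depended on single mice and on the scaling. The genes that rose numbered 21 without double mutant mouse 2, 22 without wild-type mouse 2 and 23 without wild-type mouse 3, and those that fell 3 without double mutant mouse 2 or 3 and 4 without wild-type mouse 3. With the library size alone, 52 rose and 3 fell, and with the replicate number as a block 27 rose and 3 fell. Prefoldin, which feeds CCT, was listed together with its relatives *Uri1*, *Uxt* and *Pdrg1*. That list had the highest median of the 11 lists: 5 of 9 rose, none fell, and the median log2 fold change was 0.65. Among the 5 were *Uri1* (0.81) and *Pdrg1* (0.78), and the median was the value of *Uxt* (edgeR adjusted p = 0.124). *Pfdn2* rose most, from 7.71, 6.75 and 7.99 CPM in wild-type mice 1, 2 and 3 to 11.5, 20.5 and 19.0 CPM (log2 fold change 1.18, edgeR adjusted p = 0.00476). *Vbp1*, the prefoldin alpha-type subunit 3, was at 26.5, 23.8 and 22.3 CPM and at 25.1, 21.6 and 23.1 CPM (-0.06, edgeR adjusted p = 0.761). The number that rose was 3 without wild-type mouse 2 and 2 without wild-type mouse 3 or double mutant mouse 2.

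The phosducin-like cofactors, which bind CCT and aid its work on some substrates, did not pass in either direction (0 of 3, median -0.16). Of 5 chaperonin-like genes outside the complex, 2 were tested and neither passed, and *Cct8l1* and *Bbs12* had too few counts to be tested. *Mkks* and *Bbs10*, of the Bardet-Biedl chaperonin-like group, had log2 fold changes of -0.06 and 0.13. *Cct6b*, the testis form of the zeta subunit, had only 3, 1 and 1 counts in wild-type mice 1, 2 and 3 and 5, 7 and 7 counts in the double mutants and was not tested.

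Of 12 genes of actin and tubulin, the main substrates of CCT, 2 rose and 2 fell, beside 19.7% and 17% of all genes, and the median log2 fold change was 0.05. *Actb* was at 4278, 5134 and 4117 CPM in wild-type mice 1, 2 and 3 and at 3333, 4161 and 3951 CPM in the double mutants (-0.24, edgeR adjusted p = 0.218), with overlapping groups, and *Actg1* had a log2 fold change of -0.14 (edgeR adjusted p = 0.385). Tubulin isotypes went in opposite directions. *Tubb5* rose from 14.5, 22.1 and 25.98 CPM to 71.4, 89.8 and 74.0 CPM (1.91, standard error 0.214, edgeR adjusted p = 0.000483), and *Tuba1b* from 18.5, 23.9 and 21.8 CPM to 65.8, 62.1 and 59.5 CPM (1.55, standard error 0.131, edgeR adjusted p = 0.000145). *Tubb6* fell by 1.47 (edgeR adjusted p = 0.0106) and *Tubb2a* by 1.42 on the log2 scale (edgeR adjusted p = 0.00381). These 4 tubulin calls held whichever mouse was left out. Tubulin genes are alike in sequence, and reads could be split among them in ways the counts do not show.

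Of 9 other CCT substrates, 2 rose and 2 fell. The risers were *Cdc20* (1.91, edgeR adjusted p = 0.00619), the activator of the anaphase-promoting complex, and *Ccne1* (1.66, edgeR adjusted p = 0.00376), cyclin E1, both of the cell cycle. *Gnb1*, a G protein beta subunit, fell from 1125, 1036 and 942 CPM in wild-type mice 1, 2 and 3 to 632, 699 and 621 CPM (-0.67, edgeR adjusted p = 0.00318), and *Fzr1*, another activator of that complex, fell by 0.33 (edgeR adjusted p = 0.0324). The *Fzr1* call held only when wild-type mouse 1 was left out, among the 6 fits that left out a mouse, and without that mouse 4 of the 9 rose. Among the tubulin folding cofactors, which take tubulin from CCT, 1 of 6 rose, *Tbcc* (0.52, edgeR adjusted p = 0.0334). When mice were left out it passed only without double mutant mouse 1, and the number that rose was 2 without wild-type mouse 1 and 0 without wild-type mouse 2, wild-type mouse 3, double mutant mouse 2 or double mutant mouse 3.

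**Figure D4:**
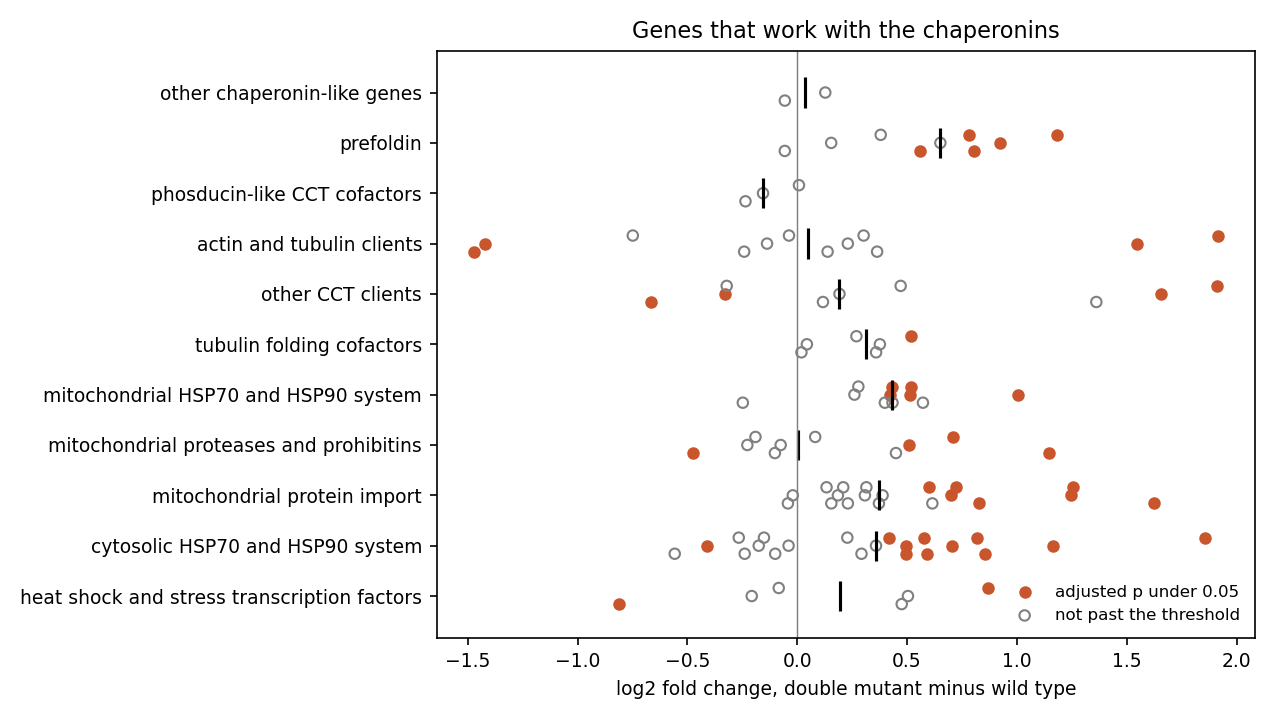
Log2 fold change (x axis, double mutant minus wild type) of each tested gene in 11 lists of genes related to the chaperonins, filled where the edgeR adjusted p was under 0.05, with the median of each list as a black line. The list of prefoldin and its relatives has the highest median (0.65), and actin and tubulin genes spread from -1.47 to 1.91 around a median of 0.05.

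In the mitochondrion, 5 of 11 genes of the matrix HSP70 and HSP90 system rose and none fell (median 0.43). *Trap1*, the mitochondrial HSP90, was at 53.3, 48.0 and 52.0 CPM in wild-type mice 1, 2 and 3 and at 104, 108 and 95.8 CPM in the double mutants (1.00, standard error 0.106, edgeR adjusted p = 0.000351). *Hspa9*, the matrix HSP70 that hands proteins to HSP60, was at 275, 211 and 204 CPM and at 309, 322 and 293 CPM (0.42, edgeR adjusted p = 0.0397). The number that rose was 8 without wild-type mouse 1, 3 without double mutant mouse 1, 2 without double mutant mouse 3, and 1 without wild-type mouse 2, wild-type mouse 3 or double mutant mouse 2. *Trap1* passed in all 6 of these fits and *Hspa9* only without wild-type mouse 1.

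Of the import machinery that brings proteins into the mitochondrion, to the matrix or to its other compartments, 7 of 19 genes rose and none fell (median 0.37). *Timm9*, a carrier of proteins across the intermembrane space, rose most, from 7.25, 5.22 and 7.18 CPM in wild-type mice 1, 2 and 3 to 20.7, 23.8 and 16.3 CPM (1.63, edgeR adjusted p = 0.000704). *Tomm20*, an import receptor of the outer membrane, was at 39.3, 31.6 and 40.7 CPM and at 47.2, 59.3 and 62.9 CPM (0.60, edgeR adjusted p = 0.0154), and its call was lost without wild-type mouse 2, double mutant mouse 2 or double mutant mouse 3. Among mitochondrial proteases and prohibitins, 3 of 10 rose and 1 fell (median 0.00). *Phb*, prohibitin, rose from 62.7, 52.8 and 54.4 CPM to 127, 136 and 114 CPM (1.15, edgeR adjusted p = 0.000333), and *Oma1*, an inner membrane protease, fell by 0.47 (edgeR adjusted p = 0.0358), which held only without double mutant mouse 1 among the fits that left out a mouse.

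In the cytosol, 10 of 21 genes of the HSP70 and HSP90 system rose and 1 fell (median 0.36). *Hsph1*, an exchange factor of HSP70, rose most, from 7.58, 13.7 and 9.20 CPM in wild-type mice 1, 2 and 3 to 46.1, 35.2 and 28.6 CPM (1.86, standard error 0.255, edgeR adjusted p = 0.00115). *Hsp90ab1*, the constitutive HSP90, rose from 175, 225 and 213 CPM to 459, 484 and 432 CPM (1.17, edgeR adjusted p = 0.00037), and *Hspa8*, the constitutive HSP70, from 697, 741 and 641 CPM to 1124, 1102 and 907 CPM (0.59, edgeR adjusted p = 0.00758). The heat-inducible HSP70 genes, *Hspa1a* and *Hspa1b*, are near-identical copies of each other, stayed under 7 CPM in every mouse and did not pass (0.36, edgeR adjusted p = 0.651, and -0.56, edgeR adjusted p = 0.184). *Dnajb1*, a heat-inducible HSP40, fell by 0.41 (edgeR adjusted p = 0.0211), a call lost without wild-type mouse 3 or without any of the double mutant mice. The number that rose was 6 without wild-type mouse 2 or double mutant mouse 2.

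Of 6 heat shock and stress transcription factors, *Hsf1*, the main regulator of heat shock genes, rose from 6.91, 5.98 and 8.04 CPM in wild-type mice 1, 2 and 3 to 12.9, 14.6 and 10.9 CPM (0.87, standard error 0.190, edgeR adjusted p = 0.00803). *Ddit3*, known as CHOP, a factor of the unfolded protein response, fell by 0.81 (edgeR adjusted p = 0.0363), a call lost without wild-type mouse 1 or any of the double mutant mice. *Atf5*, a factor tied to the mitochondrial unfolded protein response, was at 4.04, 6.15 and 6.37 CPM and at 5.54, 9.28 and 8.16 CPM (0.48, edgeR adjusted p = 0.197), with overlapping groups.

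The genes most like the chaperonins over the 6 mice were sought among 7902 genes with a mean of at least 10 CPM, by Pearson's r of log2 CPM with the mean of the CCT genes or of the mitochondrial pair. For CCT they were *Eif1ax*, *Ilf2*, *Prpf19*, *Hprt* and *Acadl*, with r from 0.997 to 0.999. For *Hspd1* and *Hspe1* they were *Cnbp*, *Gm13835*, *Ola1*, *Phb* and *Acadl*, with r from 0.997 to 1.00. The points are 2 groups of 3 mice, so that r mostly follows the difference between the groups, and 513 and 445 genes had an r above 0.95.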

How the data were processed

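The authors isolated duodenal villus epithelium with EDTA, enriched polyadenylated RNA (RIN above 4), aligned paired reads to mm9 with HISAT2 and counted them per gene with featureCounts. The deposited table holds these raw read counts, with no normalization and 1 column per mouse. Strand and multi-mapping settings are not given in the sources used here. Groups came from the labels, and so did replicate numbers. Each library is a different mouse.

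Symbols and positions came from GENCODE for mm9, which held 20032 of 20073 Ensembl identifiers. Counts were filtered with filterByExpr, scaled by TMM and tested with edgeR 4.0.16 (glmQLFit, robust, group only) in R 4.3.3, at an adjusted p of 0.05. The standard error of a fold change was taken from its size over the root of the F statistic. The test was checked on simulated counts. Alternatives were DESeq2 1.42.0, limma-voom (limma 3.58.1), other scalings, filters, covariates, thresholds and lengths, and each mouse left out. Copies were found with minimap2. Likeness was measured on log2 CPM (prior count 2).

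The members and lists were chosen with earlier results of these data known. Named genes were all members, fixed partners, the largest rise and fall in each list, divergent neighbours and the 5 genes most like each kind of chaperonin. Protein sequences were not used here, so the planned protein comparison was not run.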

Additional observations from a re-analysis of the deposited data

How the results depend on the processing

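All 10 chaperonin genes kept their direction in every fit. The number past the threshold was 10 with RLE, library size alone, limma-voom, other filters and sex as a covariate, 9 with DESeq2, and 8 to 9 with 1 mouse left out. With the replicate block it was 9, *Cct6a* being lost (adjusted p = 0.0908, edgeR). Same-numbered mice correlated at 0.022, -0.109 and 0.012 in their deviations from the group mean. With 3 mice a group, these values cannot show whether the label numbers pair the mice. By sex the numbers do match, with mouse 1 the male of each group. The block lowered the related genes that fell from 7 to 3. With a log2 fold change of at least 1, 3 chaperonin genes, 12 related genes and 1454 of all genes were higher and 2 related and 832 of all genes lower; with at least 2, the numbers were 0, 0, 406, 0 and 302. Library size alone gave 3732 genes higher and 1425 lower (2632 and 2273 with TMM), and 52 related genes higher and 3 lower (36 and 7). With 1 mouse left out, related genes numbered 21 to 46 higher (36 with all mice) and 3 to 6 lower.

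The ratio of the highest to the lowest CCT gene per length was 3.87 (wild type) and 3.48 (double mutant), 2.75 and 2.36 with the longest transcript, and 1.74 and 1.69 with the coding transcript (chosen after seeing the data), because the lengths differ. The gain in the share of *Cct3* was 2.76 points, 3.23 and 4.73 with these lengths. With 500 in place of 1000 bases, 6 members had a divergent neighbour. For single genes, 1580 repeats kept the call or its absence, 106 lost it and 35 gained it. In 0 repeats did a gene past the threshold in either fit change direction. Changes of direction in genes past it in neither fit were not counted. With 3 mice a group, a single value cannot reach an exact p below 0.1.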
